A study of Mus musculus with 8 samples.

Results

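The 8 genes described here encode metallothioneins and antioxidant enzymes or regulators: Mt1, Mt2, Gpx3, Sod3, Gstm1, Hmox1, Nqo1 and Txnip. They were taken by symbol from the 31053 genes listed for both libraries. They were measured by droplet single-cell RNA sequencing in cells sorted for PDGFRα from hindlimb muscle. Such cells are fibro/adipogenic progenitors (FAPs), stromal cells that lie between muscle fibres. The knockout cells came from 8-month-old female mice without dysferlin, whose strain is written BLA/J in the sample labels and B6A/J in the protocol. The wild type cells came from 8-month-old female C57BL/6 mice. Each genotype has 4 labelled samples, deposited as 1 pooled matrix with no map from cells to samples, so each is 1 library. With no replicates there is no test between genotypes, and the knockout, the strain and the preparation of each library cannot be told apart. Barcodes with at least 500 genes, at most 10% mitochondrial UMIs (unique molecular identifiers, each standing for 1 captured transcript) and at least 1 UMI of Pdgfra, the sorted receptor, were used. They were 1435 of 1724 knockout barcodes and 1533 of 2073 wild type barcodes.

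Dysferlin is a membrane repair protein of muscle fibres, and muscle that lacks it goes through repeated damage with fat and scar tissue laid down in part by FAPs. Metallothioneins are small cysteine-rich proteins that bind zinc and copper and take up oxidants; their genes are switched on by metals through the transcription factor MTF1 and also by glucocorticoids. Gpx3, a selenium-containing glutathione peroxidase, and Sod3, a copper- and zinc-dependent superoxide dismutase, are secreted and act outside the cell. Gstm1 joins glutathione to reactive compounds, Hmox1 breaks down haem, and Nqo1 reduces quinones. Hmox1 and Nqo1 are classic targets of NRF2, the transcription factor that answers oxidative stress. Txnip binds and inhibits thioredoxin and restrains glucose uptake.

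Mt2 and Mt1 lie next to each other on chromosome 8 of the mm10 build (GRCm38), on the plus strand, with 5513 bases between the end of Mt2 (ENSMUSG00000031762, 94172664 to 94173568) and the start of Mt1 (ENSMUSG00000031765, 94179082 to 94180327). Their promoters are shown because these genes varied together across cells, as described below. The windows run from 250 bases before to 50 bases after the start in the RefSeq table for GRCm38.p6, which held windows for 6 of the 8 genes. Capitals mark the core of the metal response element, the sequence bound by MTF1, searched as TGCACNC or TGCGCNC on both strands.
Mt2, chr8:94172368-94172667, plus strand: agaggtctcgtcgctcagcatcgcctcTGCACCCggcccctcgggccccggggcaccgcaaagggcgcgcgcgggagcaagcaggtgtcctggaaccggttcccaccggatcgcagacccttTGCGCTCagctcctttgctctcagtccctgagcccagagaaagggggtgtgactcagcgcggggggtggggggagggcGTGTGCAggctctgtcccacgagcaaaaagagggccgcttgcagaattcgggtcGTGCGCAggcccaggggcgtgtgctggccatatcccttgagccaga
Mt1, chr8:94178839-94179138, plus strand: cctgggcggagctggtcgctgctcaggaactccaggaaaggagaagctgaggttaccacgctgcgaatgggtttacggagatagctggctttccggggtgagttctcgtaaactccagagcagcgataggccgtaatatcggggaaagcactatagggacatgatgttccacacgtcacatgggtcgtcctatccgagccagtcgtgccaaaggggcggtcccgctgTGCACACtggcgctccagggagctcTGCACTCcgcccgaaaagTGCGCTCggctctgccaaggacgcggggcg
The Mt2 window held 4 matches and the Mt1 window 3. At least 1 match was found in 25.7% of the 32851 promoters of the table, and 3 or more in 1.97%. Txnip and Gstm1 windows had 1 match each and Nqo1 and Gpx3 none. The antioxidant response element core, TGACNNNGC, matched once, in Mt2, and in 12.4% of all promoters. These are matches of letters and were not tested as binding sites.

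The knockout library was the deeper one. Its cells held 19170199 UMIs in all, with medians of 12717 UMIs and 3561 genes per cell, while the wild type cells held 14420247 UMIs, with medians of 9177 UMIs and 2860 genes. The median mitochondrial share was 2.85% in knockout and 3.24% in wild type cells, and 13 barcodes occurred in both libraries. All 10 FAP markers were detected in both. The markers of fat cells were nearly absent, with Adipoq at 0 in both libraries, and cells with at least 3 markers of another cell type made up 7.53% of knockout and 5.09% of wild type cells. Dysf, the dysferlin gene, had 14 UMIs in knockout and 9 UMIs in wild type cells, too few to check the labels. The 3′ tags also do not show a disruption further upstream.

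In the knockout, Mt2 transcripts were more abundant by over 1.5-fold, while those of Gpx3, Gstm1 and Txnip were less abundant by over 1.5-fold. The Mt2 difference was under 1.5-fold, at a log2 ratio of 0.44, without cells carrying Cxcl9, at 0.33 in cells with 5000 to 15000 UMIs and at 0.24 by the ratio of medians over cells. Mt1, Sod3, Hmox1 and Nqo1 lay within 1.5-fold. Levels are UMIs summed over a library's cells and given per 1000000 UMIs (CPM), differences are log2 ratios of knockout over wild type CPM, and intervals are 95% and cover counting error only. Among the 5933 genes with a mean level of at least 20 CPM, which 7 of the 8 members reached (Nqo1 did not), 5.07% were at least 1.5-fold higher in the knockout and 3.59% at least 1.5-fold lower. At 2-fold these shares were 1.77% and 1.01%, and no member reached 2-fold. The median log2 ratio was -0.22 over the 8 members, 0.07 over the 7 measured ones and 0.05 over the 5933 genes.

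**Figure D1:**
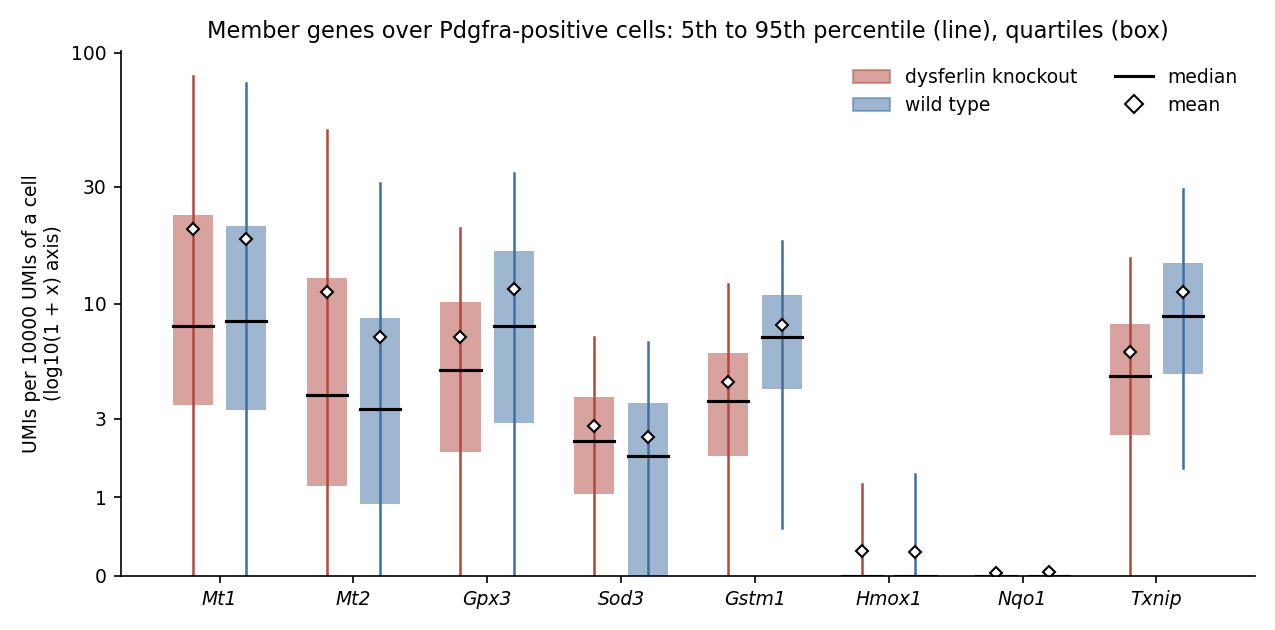
UMIs of each of the 8 genes per 10000 UMIs of a cell (vertical axis, log10(1 + x) scale) in dysferlin knockout (red, left of each pair) and wild type cells (blue), with the box at the quartiles, the line from the 5th to the 95th percentile, the bar at the median and the diamond at the mean. The medians of Gpx3, Gstm1 and Txnip are lower in the knockout, those of Mt1 lie together at 8.07 and 8.47, and the means of Mt1 and Mt2 sit far above their medians in both libraries.

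Mt1 transcripts made up 2248 CPM of the knockout library (interval 2227 to 2269.6; 43100 UMIs) and 1886 CPM of the wild type library (1864 to 1908; 27195 UMIs). The log2 ratio was 0.25 (0.23 to 0.28), a 1.19-fold difference. Mt2 had 1206 CPM in the knockout (1191 to 1222; 23125 UMIs) and 753 CPM in the wild type (739 to 767; 10854 UMIs), a log2 ratio of 0.68 (0.65 to 0.71). For each gene the counting intervals of the levels did not overlap between libraries. The share of all measured genes for which this holds is not given, so it is not read as particular to the pair. At this depth small differences also pass counting error, such as a log2 ratio of 0.16 for Mgst1 (0.11 to 0.21). Over the typical cell the genotypes were closer. The median cell had 8.07 Mt1 UMIs per 10000 in the knockout and 8.47 in the wild type. For Mt2 these medians were 3.94 and 3.35 UMIs per 10000 in knockout and wild type cells. The excess of Mt2 was larger in the upper range of cells, where the 95th percentile was 50.1 UMIs per 10000 in the knockout and 30.9 in the wild type. The ratio of medians, a summary chosen after seeing the data, gave a log2 value of 0.24 for Mt2 and -0.07 for Mt1.

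By the ratio of variance to mean, not matched for level, both metallothionein genes were among the most uneven of the measured genes over cells. After each cell was thinned to 3000 UMIs, which left out 69 knockout and 114 wild type cells, the variance of Mt1 was 14.8 times its mean in the knockout and 13.0 times in the wild type. For Mt2 this ratio was 10.2 in the knockout and 5.25 in the wild type, against medians of 1.05 and 1.04 over all measured genes in the knockout and wild type libraries. The tenth of cells with the most Mt1 held 48.7% of its UMIs in the knockout and 46.5% in the wild type. Metallothionein transcripts reached 4.46% of all UMIs in 1 knockout cell and 3.33% in 1 wild type cell. Neither gene was detected in 41 knockout cells (2.86%) and 83 wild type cells (5.41%).

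A Mt1 UMI was found in 94.4% of knockout cells (93.1 to 95.6) and 91.6% of wild type cells (90.1 to 92.9), and a Mt2 UMI in 85.7% (83.8 to 87.5) and 78.4% (76.3 to 80.4) of knockout and wild type cells. At equal depth of 3000 UMIs the Mt1 shares were 80.5% in the knockout and 80.0% in the wild type, and the Mt2 shares 63.1% and 59.6% in the knockout and wild type. As a background for free RNA, barcodes with at least 3 endothelial markers and no Pdgfra were used, which may also hold transcripts of their own. There were 5 such knockout barcodes, too few to read, with a median of 3232 UMIs, and 36 wild type barcodes with a median of 3178 UMIs. Mt1 was seen in 22.2% and Mt2 in 11.1% of these wild type barcodes, below the shares in FAPs.

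**Figure D2:**
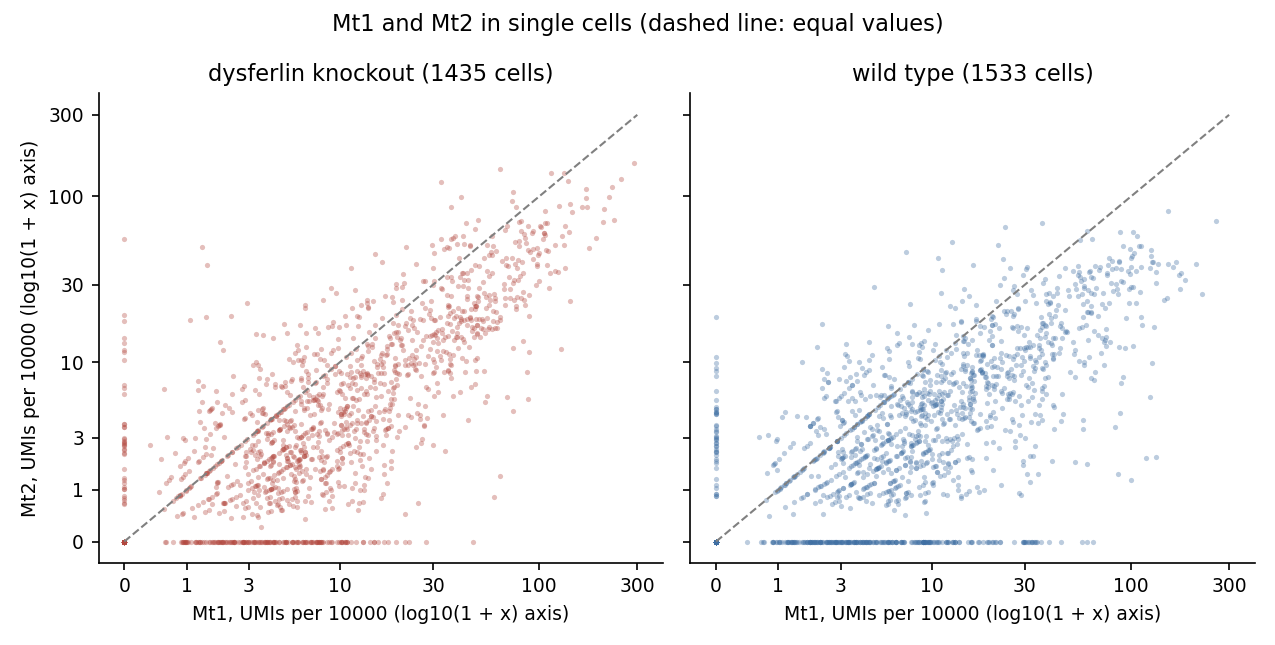
Each point is 1 cell, with its Mt1 level (horizontal) and Mt2 level (vertical) in UMIs per 10000 on log10(1 + x) axes, for dysferlin knockout (left) and wild type (right); the dashed line marks equal values. Most cells lie below the line in both libraries, and more knockout cells lie in the upper range of Mt2, where the 95th percentile is 50.1 in the knockout and 30.9 in the wild type.

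Mt1 and Mt2 went up and down together from cell to cell. Pearson's r of log(1 + UMIs per 10000) was 0.74 over 1435 knockout cells and 0.66 over 1533 wild type cells. At 3000 UMIs per cell it was 0.62 in the knockout and 0.55 in the wild type. The cells of a library share 1 preparation and its free RNA, so these values are descriptions. The balance of the pair differed between libraries: Mt2 made up 34.9% of the pair's UMIs in the knockout (34.6 to 35.3) and 28.5% in the wild type (28.1 to 29.0). Each UMI stands for 1 captured 3′ end, so gene length does not enter this share. Summed, the pair reached 3455 CPM in the knockout and 2639 CPM in the wild type, a log2 ratio of 0.39 (0.37 to 0.41).

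To see whether these differences held within kinds of FAPs, cells were grouped by marker genes, with at least 1 UMI of both genes of a pair or at least 3 UMIs of a single marker. Also taken were cells with Vcam1 but no Cxcl9 and the 25% of each library's cells with the largest share of UMIs from 16 immediate early genes, which respond within minutes to stimulation and to tissue handling. Sets overlap, since 61.7% of knockout and 48.2% of wild type cells fell into several. Of the sets, 10 had at least 25 cells of each library. Mt2 was higher in the knockout in 9 of these 10, with a median log2 ratio of 0.74, and Mt1 also in 9 of 10, with a median of 0.39. Only the set with Vcam1 but no Cxcl9 leaves out cells with Cxcl9, and there the log2 ratios were 0.12 for Mt1 and 0.45 for Mt2. The marker sets were cut on UMIs not matched for depth. The Mt2 share of the pair ranged from 28.4% to 42.8% in knockout sets and from 16.3% to 32.1% in wild type sets, and was higher in the knockout in 9 of 10. The exception was the Comp and Clu set, with 28.4% in both libraries.

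Dlk1 cells had the widest difference in Mt2, with 1175 CPM in 58 knockout cells (995 UMIs) and 216 CPM in 30 wild type cells (77 UMIs). The log2 ratio was 2.44 (2.11 to 2.80), an interval that leaves out the spread between cells. Over all cells, a single cell held up to 388 Mt2 UMIs in the knockout and 185 in the wild type. Dlk1 encodes a membrane protein that restrains fat cell formation. In Cthrc1 and Postn cells, which express genes of matrix-producing fibroblasts, Mt1 had 1994 CPM in the knockout and 928 CPM in the wild type (1.10, 0.99 to 1.22). In Cpxm1 and C1qtnf3 cells, of which there were 256 in the knockout and 42 in the wild type, Mt1 was nearly level, at 2351 CPM in knockout and 2282 CPM in wild type cells.

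The 25% of cells richest in immediate early transcripts, cut within each library and not at a matched level, ran the other way. There Mt1 had 2814 CPM in the knockout and 4122 CPM in the wild type (log2 ratio -0.55, -0.59 to -0.52), and Mt2 had 1329 CPM and 1522 CPM in knockout and wild type cells (-0.20, -0.25 to -0.14). Within the knockout library Mt1 was higher in these cells than in the others by a log2 ratio of 0.44, and within the wild type library by 1.79. Whether the genotype difference depends on this state was not tested. Without these cells, the log2 ratio was 0.80 for Mt1 and 1.19 for Mt2, so both passed 1.5-fold. The immediate early genes themselves summed to 6900.0 CPM in the knockout and 11594 CPM in the wild type, and their part in the metallothionein difference was not tested.

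When cells were ordered by their summed metallothionein level and divided into 4 equal groups, the immediate early transcripts stood at 8829 CPM in the highest and 4684 CPM in the lowest knockout group. In the wild type they stood at 20485 CPM in the highest and 6747 CPM in the lowest group. Genes induced by glucocorticoids were also more abundant in the highest group, with 3083 CPM against 2198 CPM in the lowest group of the knockout, and 7509.7 CPM against 4846 CPM in the lowest group of the wild type. The lists share Dusp1, whose transcripts count in both. Over all cells it held 487 of the glucocorticoid list's 2616 CPM in the knockout and 794 of 5749 CPM in the wild type. Txnip went the opposite way, with 459 CPM in the highest and 656 CPM in the lowest knockout group and 943 CPM in the highest and 1196 CPM in the lowest wild type group.

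Cells with the chemokine gene Cxcl9, a target of interferon, were high in metallothioneins within the knockout library. The 174 such cells had 3975 CPM of Mt1 and 1986 CPM of Mt2, log2 ratios of 1.05 and 0.91 over the other knockout cells. The wild type library held 3 such cells, so no comparison was made. Leaving out every cell with at least 1 Cxcl9 UMI, a looser cut, kept 1093 of 1435 knockout and 1511 of 1533 wild type cells. Far more knockout than wild type cells were thus removed. In the cells kept, the knockout over wild type log2 ratio was 0.44 for Mt2, under 1.5-fold, and -0.02 for Mt1. Among cells with 5000 to 15000 UMIs it was 0.33 for Mt2 and -0.11 for Mt1.

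**Figure D3:**
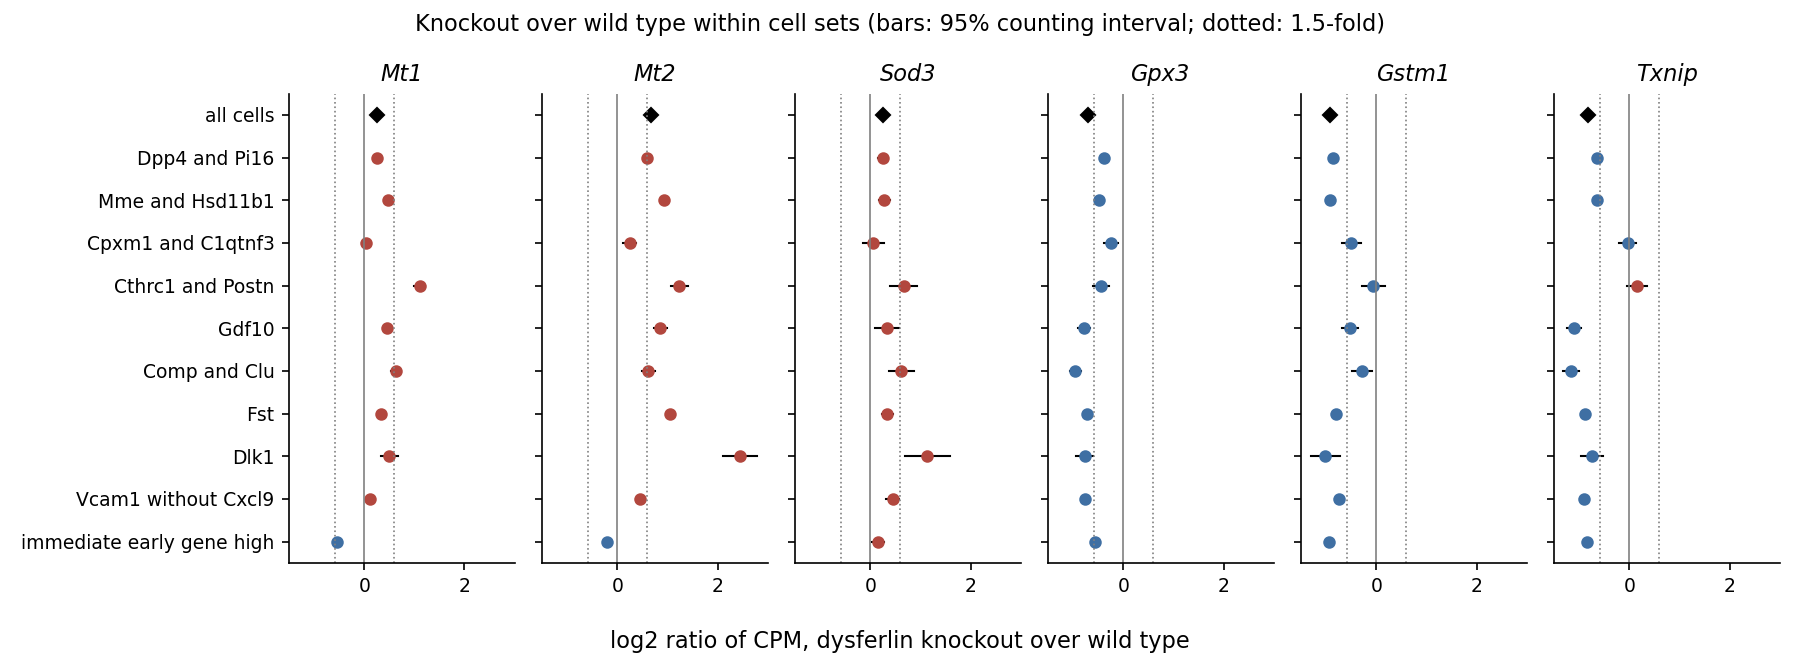
Log2 ratio of CPM, dysferlin knockout over wild type, for 6 of the genes (panels) over all cells (black diamonds) and within 10 marker-defined sets of cells (rows; red above 0, blue below 0), with 95% counting intervals as bars and dotted lines at 1.5-fold. Gpx3 and Gstm1 are lower in the knockout in 10 of 10 sets, and Mt1 and Mt2 lie below 0 in the set high in immediate early genes.

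Of the secreted enzymes, Gpx3 was lower and Sod3 a little higher in the knockout. Gpx3 (ENSMUSG00000018339, chromosome 11, 54902453 to 54910377, plus strand) had 678 CPM in knockout cells (666 to 689; 12991 UMIs) and 1103 CPM in wild type cells (1086 to 1121; 15909 UMIs). The log2 ratio of -0.70 (-0.74 to -0.67) is 1.63-fold lower in the knockout. The median cell had 5.17 UMIs per 10000 in the knockout and 8.10 in the wild type. Gpx3 was lower in 10 of 10 sets of cells, by at least 1.5-fold in 5, with log2 ratios of -0.96 to -0.25. Comp and Clu cells, which carry cartilage- and tendon-type matrix genes, had the most Gpx3 among the 10 sets in both libraries, with 909 CPM in the knockout and 1763 CPM in the wild type. A Gpx3 UMI was found in 71.0% of knockout and 76.8% of wild type cells at equal depth, against 19.4% of the wild type endothelial barcodes.

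Sod3 (ENSMUSG00000072941, chromosome 5, 52363791 to 52371418, plus strand) had 289 CPM in the knockout (281 to 297; 5540 UMIs) and 243 CPM in the wild type (235 to 251; 3504 UMIs), a log2 ratio of 0.25 (0.19 to 0.31). The difference was under 1.5-fold but had the same sign in 10 of 10 sets, with a median of 0.34. At 3000 UMIs per cell the variance of Sod3 was 1.27 times its mean in the knockout and 1.28 times in the wild type, far below that of Mt1 but above the medians of 1.05 and 1.04 over all measured genes. A UMI was found in 52.9% of knockout and 47.4% of wild type cells at equal depth, against 2.78% of the endothelial barcodes.

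Gstm1 (ENSMUSG00000058135, chromosome 3, 108012255 to 108017973, minus strand) had the lowest ratio of the 8 genes. It had 414 CPM in the knockout (405 to 423; 7928 UMIs) and 786 CPM in the wild type (771 to 800.4; 11332 UMIs), a log2 ratio of -0.93 (-0.97 to -0.88), 1.90-fold lower in the knockout. The median cell had 3.66 UMIs per 10000 in the knockout and 7.24 in the wild type. At equal depth a UMI was found in 65.0% of knockout and 85.5% of wild type cells. The share of wild type endothelial barcodes was 52.8% (35.5 to 69.6). That interval includes the knockout share, which is therefore not read as a share of expressing cells. Gstm1 was lower in 10 of 10 sets, by at least 1.5-fold in 6. The other 4 sets were under 1.5-fold: Gdf10 cells (log2 ratio -0.53), Cpxm1 and C1qtnf3 cells (-0.50), Comp and Clu cells (-0.29) and Cthrc1 and Postn cells. The Cthrc1 and Postn set had 261 CPM in the knockout and 273 CPM in the wild type (-0.07, -0.30 to 0.17), an interval that includes 0.

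Gstm1 belongs to a family of close copies. Of the 351 overlapping 50-base stretches in its last 400 transcript bases, 4 also occur in Gstm3, which had 0 UMIs in both libraries. The other measured mu-class transferases differed little. Gstm2 had 205 CPM in the knockout and 204 CPM in the wild type, and Gstm5 77.2 CPM in the knockout and 77.0 CPM in the wild type.

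Txnip (ENSMUSG00000038393, chromosome 3, 96557957 to 96561883, plus strand) had 576 CPM in the knockout (565 to 587; 11045 UMIs) and 1025 CPM in the wild type (1008 to 1041; 14778 UMIs). The log2 ratio was -0.83 (-0.87 to -0.80), 1.78-fold lower in the knockout, with a median cell of 4.84 UMIs per 10000 in the knockout and 8.93 in the wild type. It was lower in 9 of 10 sets and by at least 1.5-fold in 8. The matrix-gene sets stood apart. Cthrc1 and Postn cells had 390.2 CPM in the knockout and 351 CPM in the wild type (0.15, -0.05 to 0.36), and Cpxm1 and C1qtnf3 cells 511 CPM in the knockout and 524 CPM in the wild type (-0.04, -0.20 to 0.14). Both intervals include 0, and wild type cells of these sets were few (33 and 42). Outside the Cpxm1 and C1qtnf3 set, Txnip stood at 596 CPM in the knockout and 1048 CPM in the wild type. Its detection at equal depth, 74.3% in knockout and 87.2% in wild type cells, was below the 88.9% of endothelial barcodes and is not read as a share of expressing cells.

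The NRF2 targets Hmox1 and Nqo1 were rare, and over all cells their intervals included no difference. Hmox1 (ENSMUSG00000005413, chromosome 8, 75093621 to 75100589, plus strand) had 25.1 CPM in the knockout (22.9 to 27.4; 481 UMIs) and 23.9 CPM in the wild type (21.4 to 26.5; 344 UMIs), a log2 ratio of 0.07 (-0.13 to 0.28). Across the 10 sets it was higher in the knockout in 5 and lower in 5. In 2 sets the interval excluded 0, on opposite sides: cells with Vcam1 and no Cxcl9 had 26.1 CPM in the knockout and 39.3 CPM in the wild type (-0.59, -0.94 to -0.23), and the set high in immediate early genes had 39.6 CPM in the knockout and 29.2 CPM in the wild type (0.44, 0.08 to 0.81). A UMI was found in 5.12% of knockout and 5.85% of wild type cells at equal depth, not above the 8.33% of endothelial barcodes. The UMIs were concentrated: the 10 highest cells held 94 of the 481 knockout UMIs and 74 of the 344 wild type UMIs. Markers of macrophages, which express Hmox1 strongly, summed to 76.5 CPM in the knockout, with 10 of 10 detected, and to 7.07 CPM in the wild type, with 8 of 10 detected, where Ptprc and C1qa were at 0. The 14 knockout cells with at least 3 macrophage markers held 22 Hmox1 UMIs, and without them Hmox1 stood at 24.5 CPM in the knockout, against 23.9 CPM in the wild type, which had 0 such cells.

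Nqo1 (ENSMUSG00000003849, chromosome 8, 107388225 to 107403206, minus strand) had 42 UMIs in the knockout, or 2.19 CPM (1.58 to 2.96), and 45 UMIs in the wild type, or 3.12 CPM (2.28 to 4.18). The log2 ratio of -0.51 has an interval of -1.15 to 0.13, and a level up to 2.22-fold lower in the knockout lies within what this depth allows. At equal depth a UMI was found in 0.732% of knockout and 0.634% of wild type cells. The share of wild type endothelial barcodes was 11.1% (3.11 to 26.1), so the shares in FAPs are not read as shares of expressing cells.

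**Figure D4:**
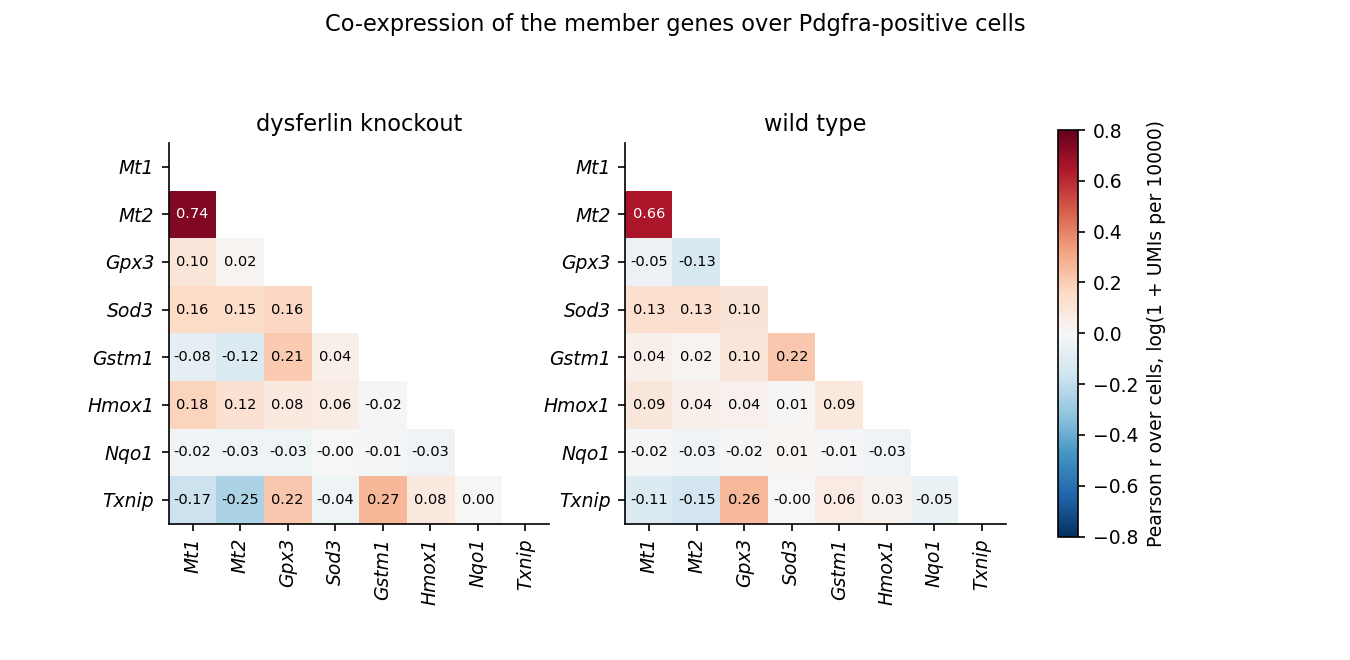
Pearson r over cells of log(1 + UMIs per 10000) for each pair of the 8 genes, in dysferlin knockout (left) and wild type cells (right), on a colour scale from -0.8 (blue) to 0.8 (red). The Mt1 and Mt2 pair, 0.74 in the knockout and 0.66 in the wild type, stands apart from the other pairs, which lie between -0.25 and 0.27.

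Apart from the metallothionein pair, the 8 genes were weakly related across cells. Txnip was inversely related to Mt2, with r of -0.25 in the knockout and -0.15 in the wild type, and to Mt1, with -0.17 and -0.11 in knockout and wild type cells. Txnip and Gpx3 were positively related, with 0.22 in the knockout and 0.26 in the wild type. Txnip and Gstm1 had 0.27 in the knockout and 0.06 in the wild type, and Sod3 and Gstm1 0.04 in the knockout and 0.22 in the wild type. At 3000 UMIs per cell the Txnip and Gstm1 values were 0.15 in the knockout and 0.06 in the wild type. Such low values in sparse counts are given as descriptions. The rank correlation of Mt1 with a cell's share of immediate early UMIs was 0.21 in the knockout and 0.48 in the wild type.

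The genes most like each member over cells, ranked by the lower r of the libraries, differed from member to member. After Mt2, Mt1 was most like Junb, an immediate early transcription factor gene (0.31 in the knockout and 0.48 in the wild type), and Socs3, a feedback inhibitor of cytokine signalling (0.30 in the knockout and 0.48 in the wild type). Gpx3 was most like the matrix genes Ogn (0.34 in the knockout and 0.37 in the wild type), Serpinf1 and Tgfbi. Sod3 was most like Fstl1 (0.24 in the knockout and 0.25 in the wild type), Fn1 and Dpt, which encode secreted or matrix proteins. Gstm1 was most like Clec3b (0.35 in the knockout and 0.39 in the wild type), Rarres2 and the chemokine-scavenging receptor gene Ackr3. Txnip was most like the actin-binding protein gene Gsn (0.35 in the knockout and 0.31 in the wild type), the lipoprotein lipase gene Lpl and Klf9, a transcription factor gene induced by glucocorticoids. For Hmox1 the first genes were Ftl1 (0.10 in the knockout and 0.12 in the wild type), H2-Q4 and Ubb, and for Nqo1 Bmyc, Maml3 and Cpe, with no r above 0.1, too low to single any out.

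The lists of related genes leave out the 8 genes themselves, so Gpx3 and Gstm1 are not counted in their own families below. Apart from them, antioxidant genes were mostly within 1.5-fold between libraries, as were most measured genes. Over all 5933 measured genes, 5.07% passed this size upward and 3.59% downward, so short lists would hold few such genes anyway. Counts of 0 or 1 in these lists, and in the metal and iron lists below, are therefore not read as particular to them. Of 20 measured NRF2 pathway genes, 0 were at least 1.5-fold apart, and the median log2 ratio was -0.08. The most abundant were Prdx1, a peroxide-reducing enzyme (411 CPM in the knockout and 415 CPM in the wild type), and Ugdh, which supplies glucuronic acid (230.4 CPM in the knockout and 295 CPM in the wild type). Of 15 other measured glutathione peroxidases, transferases and related genes, 0 were 1.5-fold apart (median 0.00), while Gpx3 and Gstm1 of the same families were 1.63-fold and 1.90-fold lower in the knockout. Mgst1, a membrane-bound transferase, had 449 CPM in the knockout and 401 CPM in the wild type, and Gpx4, which protects membrane lipids, 264 CPM in the knockout and 296 CPM in the wild type. The 14 superoxide, peroxide and thioredoxin enzymes also had 0 past 1.5-fold (median 0.03). Txn1, the thioredoxin that Txnip inhibits, had 608 CPM in the knockout and 628 CPM in the wild type, and Prdx2 224 CPM in the knockout and 213 CPM in the wild type. Of 10 selenoprotein genes other than Gpx3, 0 passed 1.5-fold (median -0.02), with Selenow at 586 CPM in the knockout and 590.4 CPM in the wild type and Selenom at 455 CPM in the knockout and 491 CPM in the wild type.

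Metal and iron genes each had 1 member past 1.5-fold. Of 11 measured metal handling genes, Slc39a14, an importer of zinc, manganese and iron, had 37.5 CPM in the knockout and 15.3 CPM in the wild type (log2 ratio 1.30, 1.08 to 1.52). The copper chaperone Atox1 had 235 CPM in the knockout and 234 CPM in the wild type, the zinc importer Slc39a1 103 CPM in the knockout and 94.9 CPM in the wild type, and the list's median was 0.15. Of 11 haem and iron genes the iron carrier gene Trf was lower, with 29.0 CPM in the knockout and 64.4 CPM in the wild type (-1.15, -1.31 to -0.998). The ferritin subunits had 3219 CPM (Fth1) and 1681 CPM (Ftl1) in the knockout, and 4559.6 CPM (Fth1) and 2447 CPM (Ftl1) in the wild type, log2 ratios of -0.50 and -0.54, just under 1.5-fold. The median of the list was -0.18. Haemoglobin transcripts were 30.3 CPM in the knockout and 842 CPM in the wild type, where 1 cell held 11978 of 12149 UMIs.

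Of 3 measured arrestin-domain and glucose-response genes, Arrdc3 and Arrdc4 are relatives of Txnip. Arrdc3 had 40.0 CPM in the knockout and 76.6 CPM in the wild type (-0.94, -1.07 to -0.80). Arrdc4 had 22.2 CPM in the knockout and 26.1 CPM in the wild type (-0.23). Of 5 oxidant-producing enzymes, Lox, which crosslinks collagen and releases hydrogen peroxide, had 147 CPM in the knockout and 95.8 CPM in the wild type (0.62, 0.52 to 0.71), while Cyba, a subunit of NADPH oxidases, had 180.0 CPM in the knockout and 212 CPM in the wild type.

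Genes that share inducers with metallothioneins and Txnip differed more widely. Of 10 measured glucocorticoid-induced genes, 8 were at least 1.5-fold lower in the knockout, against 3.59% of all 5933 measured genes. The median log2 ratio of the list was -1.14. Zbtb16 had 80.9 CPM in the knockout and 387 CPM in the wild type (-2.26), Tsc22d3 215 CPM in the knockout and 830 CPM in the wild type (-1.95), and Ddit4 42.6 CPM in the knockout and 159 CPM in the wild type (-1.90). Of 16 immediate early genes, 15 were below 0 and 11 at least 1.5-fold lower in the knockout, with a median of -0.77. The lowest were Ier2 (-1.29), Klf2 (-1.24) and Btg2 (-1.14). Dusp1 (-0.71) is on both lists and is counted in each. Mt1 and Mt2 are not on these lists and did not share this direction over all cells, while Gpx3, Gstm1 and Txnip did. The part of either response in the levels of the 8 genes was not tested.

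**Figure D5:**
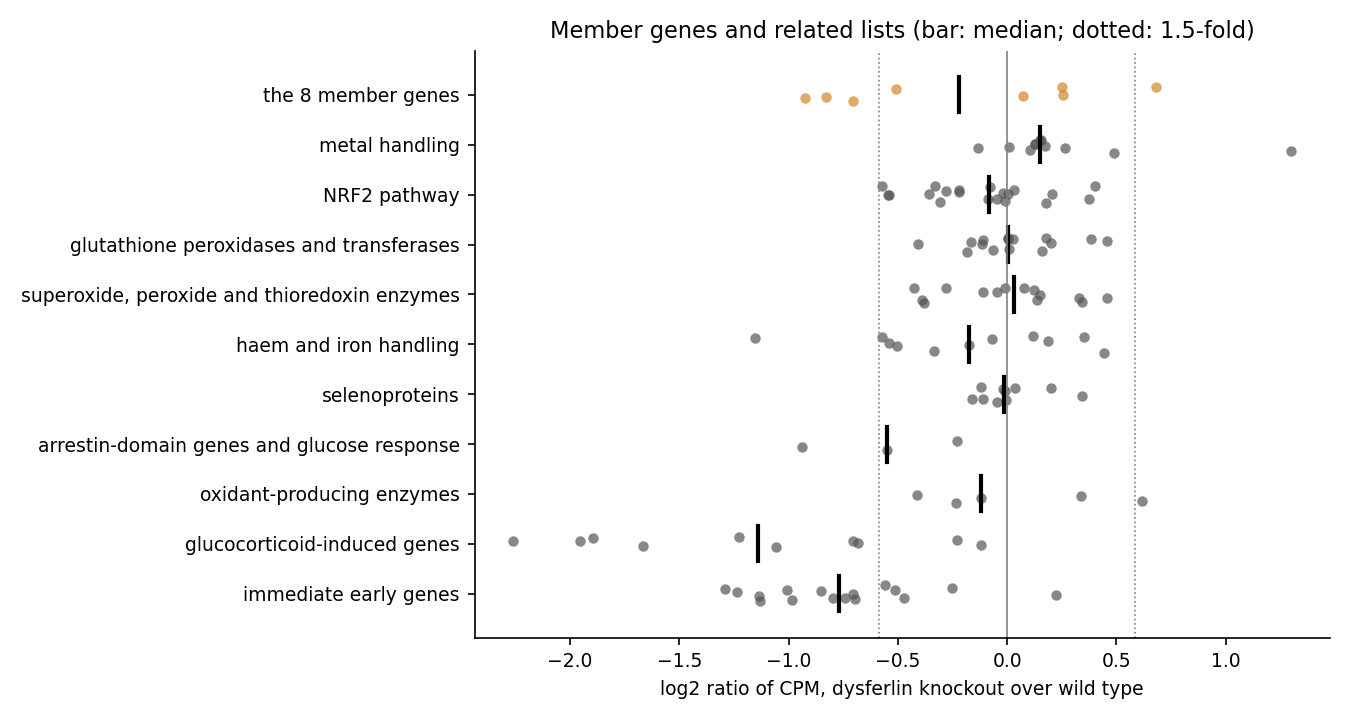
Log2 ratio of CPM, dysferlin knockout over wild type (horizontal axis), for the 8 genes (orange) and the measured genes of 10 related lists (grey, 1 point per gene), with a bar at each median and dotted lines at 1.5-fold. The antioxidant lists, which leave out the 8 genes, gather near 0, while the glucocorticoid-induced and immediate early lists have medians of -1.14 and -0.77.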

How the data were processed

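The authors deposited unnormalized UMI counts, 1 matrix per genotype with genes in rows and cell barcodes in columns. The submitters' processing notes name the mm10 build, Seurat and Cell Ranger 3.0.0, and the software version written in the matrices is 3.0.2, per the file headers. Doublets had been gated out by pulse width in the sort, per the labels' protocols, and no doublet caller was run here. The cell filter is given with the results.

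Counts were summed per library and divided by its total. Levels have exact Poisson intervals, log2 ratios exact conditional binomial intervals and shares exact Clopper-Pearson intervals, all 95% and for counting error only. The depth gives a floor of 0.156 CPM in the knockout and 0.208 CPM in the wild type for a count of 0 (3 counts). Size was judged at 1.5-fold, and genes with a mean of at least 20 CPM were measured. Python 3.11.15, numpy 2.4.6, scipy 1.17.1, pandas 2.3.3 and matplotlib 3.10.9 were used, and the ratio was checked on simulated counts. Coordinates come from GENCODE M21 and promoters from RefSeq.

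All 8 genes are named, and the lists of related genes leave them out. Of each list, up to 3 of the highest and 3 of the lowest genes past 1.5-fold are named, and where fewer than 2 passed, also the 2 most abundant. For Gstm relatives the choice was made after their values were seen. The genes most like a member are the 3 with the highest lower r of the libraries. The members, lists and sets were chosen with earlier results of these data known. Alternatives changed the scaling, the cell filter, the Pdgfra rule, the depth, the weight of cells, the size criterion and the sets of cells left out.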

Additional observations from a re-analysis of the deposited data

How the results depend on the processing

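Gpx3, Gstm1 and Txnip were at least 1.5-fold lower in the knockout in all 14 alternatives for single genes, with log2 ratios of -0.76 to -0.59, -0.98 to -0.76 and -0.88 to -0.69. With a 2-fold criterion 0 members were lower and 0 higher. Mt2 stayed above 0 in 14 of 14 (0.24 to 1.19) and past 1.5-fold in 11. Mt1 ranged from -0.11 to 0.80, below 0 in 3. Sod3 ranged from 0.10 to 0.29, Hmox1 from -0.12 to 0.09 and Nqo1 from -0.75 to 0.34. The count of members at least 1.5-fold higher was 1. It was 0 by the ratio of medians, in cells with 5000 to 15000 UMIs and without cells carrying any Cxcl9 UMI. It was 2 without the 25% of cells highest in immediate early genes.

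The summed Mt1 and Mt2 log2 ratio of 0.39 was 0.34 with median-of-ratios scaling, 0.28 as a mean of each cell's CPM, 0.30 at 3000 UMIs per cell, 0.31 with no filter on genes or mitochondrial UMIs, 0.34 under the stricter cell filter (1000 genes, 5% mitochondrial UMIs), 0.41 with at least 2 Pdgfra UMIs, and 0.35 without cells carrying markers of another type. It was 0.93 without the 25% of cells highest in immediate early genes and 0.026 in cells with 5000 to 15000 UMIs. Without cells carrying any Cxcl9 UMI, which left 1093 knockout and 1511 wild type cells, it was 0.13. By the ratio of medians it was 0.10 and without the deepest 5% of cells 0.34, both chosen after seeing the data. The Mt1 and Mt2 correlation was 0.62 in knockout and 0.55 in wild type cells at 3000 UMIs, 0.77 and 0.61 in knockout and wild type cells without those 25% of cells, and 0.76 in knockout cells with the stricter filter. Where these values moved, the cause was not tested.

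No paired analysis was possible because each matrix pools the labelled samples with no map from cells to samples, and leaving out a replicate was impossible for the same reason. Depth limits Nqo1 and the sets with few wild type cells.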

Other observations

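Sets of cells with fewer than 25 cells in 1 library were not compared between genotypes, and their levels are given as values. Cells with the tendon genes Tnmd and Fmod, 18 in the knockout and 14 in the wild type, had 1010.5 CPM of Gpx3 in the knockout and 2371 CPM in the wild type, the highest Gpx3 level of the 13 sets in each library. Their Mt1 stood at 3876 CPM in the knockout and 2462 CPM in the wild type. Cells with Stmn4 and Inmt, 17 in the knockout and 168 in the wild type, had the highest Gstm1 level of the sets in each library, with 707 CPM in the knockout and 1041 CPM in the wild type. Barcodes that passed the quality filter but had no Pdgfra UMI, 149 in the knockout and 264 in the wild type, had 27.5 CPM of Hmox1 in the knockout (22 UMIs) and 21.0 CPM in the wild type (27 UMIs), close to the levels in the cells with Pdgfra. Barcodes with macrophage markers held part of these UMIs: 8 UMIs in 5 knockout barcodes and 6 UMIs in 4 wild type barcodes.

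The genes on the opposite strand of members were nearly silent. Gm45774, which overlaps Mt2, had 14 UMIs in the knockout and 20 UMIs in the wild type. Gm15441, which overlaps Txnip, had 8 UMIs in the knockout and 10 UMIs in the wild type.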
